A study of Homo sapiens with 6 samples.

Results

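The genes described here were 10 tubulin genes, TUBA1A, TUBA1B, TUBA1C, TUBB, TUBB2A, TUBB2B, TUBB3, TUBB4B, TUBB6 and TUBG1. They were picked by symbol, without a rule on measured values, from the 23030 genes of the spike-in normalized table. Earlier results of these data were known when the choice was made. Each of the 10 symbols was found there. The set holds 3 alpha-tubulin genes, 6 beta-tubulin genes and 1 gamma-tubulin gene.

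RNA was sequenced from T98G, an established human glioblastoma cell line, after lentiviral delivery of a control short hairpin RNA (shControl) or of a hairpin directed against the protein kinase DYRK1A (shDYRK1A), with 3 libraries per condition named 1A, 1B and 1C. Cells of both conditions were selected with puromycin and then kept without it before collection. By design every sample held the same number of T98G cells and the same dose of Kc167, a Drosophila line, whose RNA set the scale for the human transcripts. Nothing in the labels says that the libraries of a condition came from separate infections, and a single label covers the DYRK1A hairpin, so the p-values measure only the spread between these libraries, which may be technical.

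DYRK1A itself had 2227, 2234 and 1895 spike-in normalized counts in the shControl libraries, listed here and below in the order 1A, 1B, 1C, and 1482, 1056 and 1285 in the shDYRK1A libraries, without overlap. The log2 fold change, here always shDYRK1A over shControl, was -0.73 (SE 0.15, adjusted p = 5.33e-06, edgeR quasi-likelihood test with Benjamini-Hochberg adjustment over 9697 genes). Gene counts ranged from 33708297 to 42154438 per library, and unmapped reads made up 8.44 to 10.7% of reads in shControl and 10.8 to 15.6% in shDYRK1A, with shDYRK1A 1B the library of lowest depth and most unmapped reads. VIM and CD44, mesenchymal genes, stood at 1530 to 1975 and 1401 to 1592 CPM (counts scaled to the same library total), whereas the glial marker S100B had 0 counts, GFAP had 9 and SOX2 had 3 in all 6 libraries together. NES was at 1.90 to 2.02 CPM in shControl and 1.29 to 1.80 CPM in shDYRK1A, and OLIG2 at 1.54 to 1.87 and 1.06 to 1.36 CPM. The summed level of 8 neuronal markers was 10.5 to 11.8 CPM in shControl and 6.23 to 7.05 CPM in shDYRK1A, nearly all of it SNAP25, with STMN2 at 0. The summed level of 4 immune markers was 0.617 to 1.14 CPM and 1.16 to 1.38 CPM, with AIF1 at 0, and that of 4 endothelial markers was 0.641 to 0.937 CPM and 0.618 to 0.954 CPM, with KDR at 0. The part of these cell types and of the unmapped reads in the results was not tested.

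Microtubules are hollow polymers of alpha- and beta-tubulin, which join as a heterodimer before they enter the lattice. Gamma-tubulin does not form part of the wall but sits in a ring complex at centrosomes and other organizing centers, from which new microtubules grow. Vertebrates carry several genes, or isotypes, for each class, whose proteins differ chiefly in an acidic tail that projects from the microtubule and receives glutamate chains and other modifications. Cells also adjust tubulin synthesis to the pool of free dimers. Excess dimers trigger the decay of tubulin mRNAs that are being translated, through the factor TTC5, which reads the first residues of the emerging alpha- or beta-tubulin chain.

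The beginning of each coding sequence and the end of 8 of them are shown because the first codons are what that surveillance step reads and because the last codons encode the tail in which isotypes chiefly differ. Both were copied from GENCODE v29 transcripts. In the 30 bases from the start codon, capitals mark the first 4 codons.
TUBA1A: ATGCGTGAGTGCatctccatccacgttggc
TUBA1B: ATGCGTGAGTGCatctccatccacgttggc
TUBA1C: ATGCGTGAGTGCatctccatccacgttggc
TUBB: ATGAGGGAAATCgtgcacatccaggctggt
TUBB2A: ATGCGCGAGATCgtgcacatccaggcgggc
TUBB2B: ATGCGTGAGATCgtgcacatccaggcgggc
TUBB3: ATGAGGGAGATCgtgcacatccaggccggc
TUBB4B: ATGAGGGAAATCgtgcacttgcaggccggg
TUBB6: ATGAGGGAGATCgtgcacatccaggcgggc
TUBG1: ATGCCGAGGGAAatcatcaccctacagttg
The 3 alpha genes were identical over these bases. In the first 4 codons TUBB and TUBB4B were alike, as were TUBB3 and TUBB6, and all 6 beta genes encode the same residues there. TUBG1 had a start of its own.

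At the other end, the last 30 bases of these 8 are given with the stop codon in capitals.
TUBA1C: gacggagaggatgagggtgaagagtatTAA
TUBB: ttcggtgaggaggccgaagaggaggccTAA
TUBB2A: gaggaggaggagggcgaggacgaggctTAA
TUBB2B: gaggaggaggagggcgaggacgaggcgTAG
TUBB3: gaggagtcggaggcccagggccccaagTGA
TUBB4B: gaggaggaggctgaggaggaggtggccTAG
TUBB6: gaggatgaggaagaggagatcgatggaTAG
TUBG1: tacatctcctggggcacccaggagcagTGA
Each beta gene had its own last bases, although those of TUBB2A and TUBB2B encode the same residues. Over the whole coding sequence TUBA1A and TUBA1B were identical at 97.19% of aligned bases and TUBB2A and TUBB2B at 98.2%, and the encoded proteins at 99.56 and 99.55%. TUBG1 shared 30.28% of protein positions with TUBA1A.

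Such likeness bears on how reads can be assigned. Of all windows of read length in the principal transcript, the share that also occurs in transcripts of another gene was 88.9% for TUBB3, 52.2% for TUBB2A, 42.9% for TUBB2B and 27.7% for TUBA1B. It was 12.4% for TUBA1A, 10.2% for TUBG1, 8.86% for TUBA1C, 3.46% for TUBB, 1.26% for TUBB4B and 0% for TUBB6. Reads that mapped to several places, 2.26 to 2.49% of reads, were set apart and counted for no gene. So were reads ambiguous between genes, 3.42 to 3.59% of reads. The values of TUBB3, TUBB2A and TUBB2B are therefore uncertain and may be too low, and to a lesser degree so may those of TUBA1B and TUBA1A. Reads were sequenced as pairs, which these single windows do not take into account. Whether reads were placed in a near-identical copy was not tested. The genes that hold windows of TUBB3 include AC092143.1, with which it shared 35.8% of its exon bases on the same strand. Its highest coding identity with another member was 87.78% (TUBB2A). How many of its windows each gene accounts for was not tested. Exons of genes on the opposite strand covered 36.6% of exon bases of TUBA1B, 24.96% of TUBA1C, 20.3% of TUBB6, 16.0% of TUBB and 14.3% of TUBA1A. Libraries were made with a stranded kit, but whether the counting used strand is not given in the sources used here.

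The tubulin genes spanned more than 3 orders of magnitude of counted abundance, a span that rests on the uncertain values of TUBB2B and TUBB3. TUBB ranked 15 and TUBA1B ranked 17 by mean shControl CPM among the 58174 genes of the count tables, with 3157 and 3010 CPM. TUBA1C ranked 183 with 632 CPM, TUBB4B 234 with 513 CPM, TUBA1A 451 with 317 CPM, TUBG1 1611 with 123 CPM and TUBB6 3140 with 69.9 CPM. TUBB2A ranked 8827 with 13.7 CPM. TUBB2B, at 2.42 CPM, and TUBB3, the neuronal isotype, at 1.74 CPM, fell below the mean of 10 CPM required for the main test, so that 8 of the 10 genes entered it.

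Per kilobase of annotated exon, the shControl level was 940 ± 17.1 CPM (SD, n = 3 here and below) for TUBB, 842 ± 22.2 for TUBA1B, 243 ± 4.60 for TUBB4B, 137 ± 0.705 for TUBA1C and 92.8 ± 6.74 for TUBA1A. It was 51.1 ± 1.27 for TUBG1, 16.98 ± 0.359 for TUBB6, 7.94 ± 0.308 for TUBB2A, 1.10 ± 0.225 for TUBB2B and 0.393 ± 0.148 for TUBB3. Neighbors in this order did not overlap between libraries. The order of the first pair depended on the length used. Per kilobase of the principal transcript alone, a length chosen after the data had been seen, TUBA1B stood at 1850 ± 48.9 CPM and TUBB at 1182 ± 21.6 CPM. On that length TUBA1C and TUBA1A, at 211 ± 1.09 and 168 ± 12.2 CPM in shControl, came to 186 ± 10.6 and 189 ± 9.90 CPM in shDYRK1A, which overlapped.

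**Figure D1:**
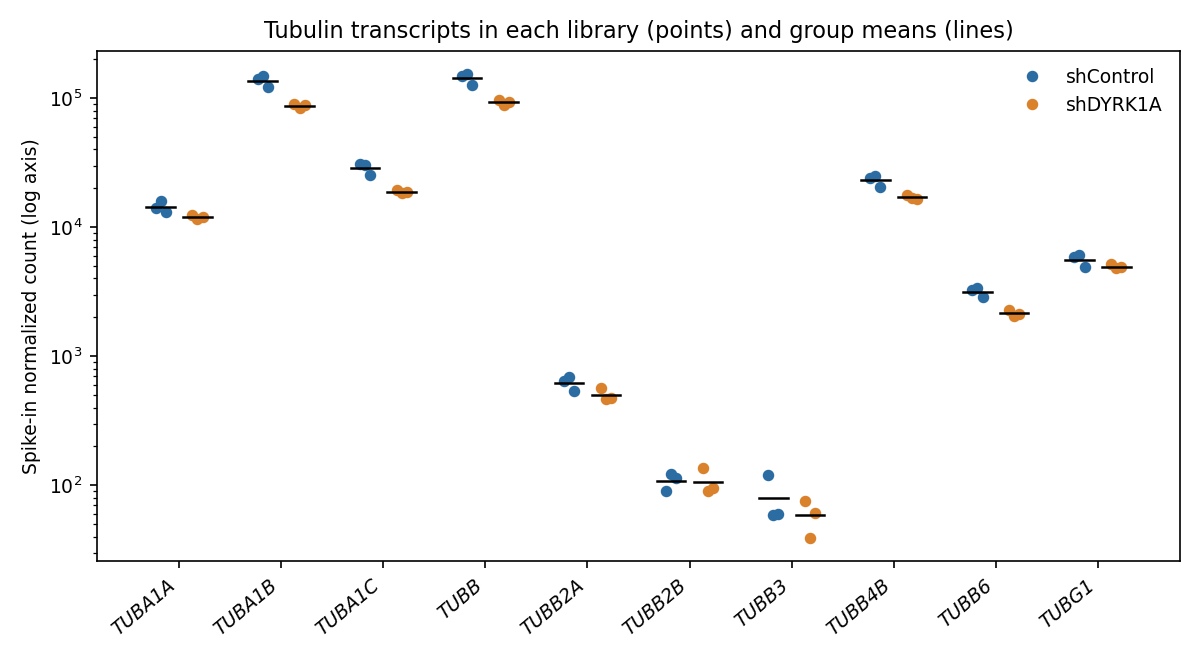
Spike-in normalized counts (log axis) of the 10 tubulin genes in each shControl (blue) and shDYRK1A (orange) library, with lines at the group means. TUBB and TUBA1B sit at 120986 to 153592 in shControl and 83753 to 97181 in shDYRK1A, and the TUBB2A, TUBB2B, TUBB3 and TUBG1 points of the groups overlap.

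Among the alpha-tubulin genes, TUBA1B and TUBA1C were lower in shDYRK1A on both scales used, whereas TUBA1A passed the edgeR test on neither. One scale was the fly spike-in. The other was the trimmed mean of M-values (TMM), which sets the bulk of human genes level and so reads each gene relative to the others. The median of all genes tested was -0.40 on the spike-in scale and 0.00 with TMM, and the numbers below are to be read against these.

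TUBA1B (chr12:49127782-49131397, minus strand, GRCh38) encodes the alpha-tubulin found in nearly all cells. It had 140764, 147605 and 120986 spike-in normalized counts in shControl and 89142, 83753 and 88320 in shDYRK1A. Every shDYRK1A library lay below every shControl library. The log2 fold change was -0.65 (SE 0.12, adjusted p = 1.5e-06 in the edgeR quasi-likelihood test) on the spike-in scale and -0.24 (SE 0.06, adjusted p = 0.00329) with TMM.

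TUBA1C (chr12:49188736-49274603, plus strand) encodes a closely related alpha-tubulin. It had 30583, 30155 and 25282 normalized counts in shControl, and shDYRK1A had 19244, 18370 and 18720, again without overlap. Fold changes were -0.61 (SE 0.13, adjusted p = 1.56e-05, edgeR) with the spike-in and -0.20 (SE 0.05, adjusted p = 0.00828) with TMM.

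TUBA1A (chr12:49184796-49189324, minus strand), best known as the main alpha-tubulin of developing neurons, had 13985, 15914 and 13180 normalized counts in shControl and 12327, 11652 and 12000 in shDYRK1A. The groups did not overlap, but the difference of -0.26 on the log2 scale (SE 0.13) had an adjusted p of 0.0707 in the edgeR test. With TMM the sign turned, to 0.15 (SE 0.06, adjusted p = 0.0617), and by CPM all shDYRK1A libraries (336, 373 and 360) lay above all shControl libraries (291, 333 and 329). DESeq2's Wald test called it with the spike-in (adjusted p = 0.0268). That test also called it relative to all genes (adjusted p = 0.0369), there with median-of-ratios scaling in place of TMM. In edgeR with the replicate block it was called with TMM (0.15, adjusted p = 0.0127). With 1 library left out, the spike-in difference ran from -0.32 (adjusted p = 0.00714, without shControl 1C) to -0.18 (adjusted p = 0.348, without shControl 1B). The TMM difference ran from 0.0874 (adjusted p = 0.274, without shControl 1A) to 0.20 (adjusted p = 0.0274, without shDYRK1A 1A), and was 0.0965 without shDYRK1A 1B. TUBA1A lies beside TUBA1C on the other strand, and the exons of the pair overlap.

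Of the beta-tubulin genes, TUBB and TUBB6 were lower in shDYRK1A on both scales, TUBB4B on the spike-in scale alone, and TUBB2A, TUBB2B and TUBB3 passed on neither. TUBB (chr6:30720201-30725426, plus strand) encodes the principal beta-tubulin of dividing cells. The shControl libraries had 148901, 153592 and 126914 normalized counts of it and the shDYRK1A libraries 97181, 88676 and 93342. The groups lay well apart, with a log2 fold change of -0.62 (SE 0.12, adjusted p = 3.98e-06, edgeR) on the spike-in scale and -0.21 (SE 0.05, adjusted p = 0.00372) with TMM.

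TUBB4B (chr9:137241213-137243707, plus strand), another widely expressed isotype that is also found in cilia, had 24162, 24960 and 20598 normalized counts in shControl and 17613, 16888 and 16563 in shDYRK1A. These did not overlap, and the spike-in fold change was -0.45 (SE 0.13, adjusted p = 0.00153, edgeR). With TMM it was -0.04 (SE 0.06, adjusted p = 0.584), and the CPM values of the groups overlapped (502, 522 and 513 against 480, 541 and 497). Single libraries moved the relative value, which came to 0.0069 without shDYRK1A 1A, to -0.0186 without shDYRK1A 1C and to -0.11 (adjusted p = 0.0163) without shDYRK1A 1B.

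TUBB6 (chr18:12307669-12344320, plus strand) is a divergent beta isotype that was also the member with no read-length window in common with another gene. It had 3283, 3366 and 2854 normalized counts in shControl and 2294, 2060 and 2133 in shDYRK1A. All shDYRK1A values were the lower ones, with fold changes of -0.55 (SE 0.14, adjusted p = 0.000389, edgeR) on the spike-in scale and -0.14 (SE 0.05, adjusted p = 0.0264) with TMM. The TMM call was lost when any of shControl 1B, shControl 1C, shDYRK1A 1A or shDYRK1A 1C was left out, with adjusted p between 0.0675 and 0.107.

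TUBB2A (chr6:3153669-3157526, minus strand), a beta isotype abundant in brain, had 639, 684 and 542 normalized counts in shControl and 564, 469 and 471 in shDYRK1A, which overlapped. The fold change was -0.31 (SE 0.16, adjusted p = 0.0818, edgeR) on the spike-in scale and 0.09 (SE 0.07, adjusted p = 0.294) with TMM. Without shControl 1C or without shDYRK1A 1A, the spike-in value was -0.40 in each case, with adjusted p of 0.018 and 0.037.

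TUBB2B (chr6:3224261-3231730, minus strand), its near-identical neighbor, had 90.1, 121 and 114 normalized counts against 135, 90.8 and 94.7, and TUBB3 (chr16:89921392-89938761, plus strand) had 119, 59.0 and 60.4 against 75.6, 38.9 and 61.0. Both pairs of groups overlapped. In the edgeR fit to the 17530 genes kept by filterByExpr, a looser filter, TUBB2B had a fold change of -0.03 (SE 0.22, adjusted p = 0.935) with the spike-in and 0.32 (SE 0.17, adjusted p = 0.152) with TMM. TUBB3 had -0.43 (SE 0.26, adjusted p = 0.155) and -0.06 (SE 0.25, adjusted p = 0.87).

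TUBG1 (chr17:42609676-42615234, plus strand), the gamma-tubulin gene, did not pass on the spike-in scale and was higher in shDYRK1A with TMM. It had 5828, 6065 and 4890 normalized counts in shControl and 5174, 4786 and 4874 in shDYRK1A. The groups overlapped, with a fold change of -0.18 (SE 0.14, adjusted p = 0.234, edgeR), which was -0.27 (adjusted p = 0.0395) without shControl 1C and -0.12 (adjusted p = 0.563) without shControl 1B. Relative to all genes it was higher in shDYRK1A, by 0.23 (SE 0.05, adjusted p = 0.00207, edgeR with TMM), and the CPM values of 121, 127 and 122 in shControl were all below the 141, 153 and 146 of shDYRK1A.

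**Figure D2:**
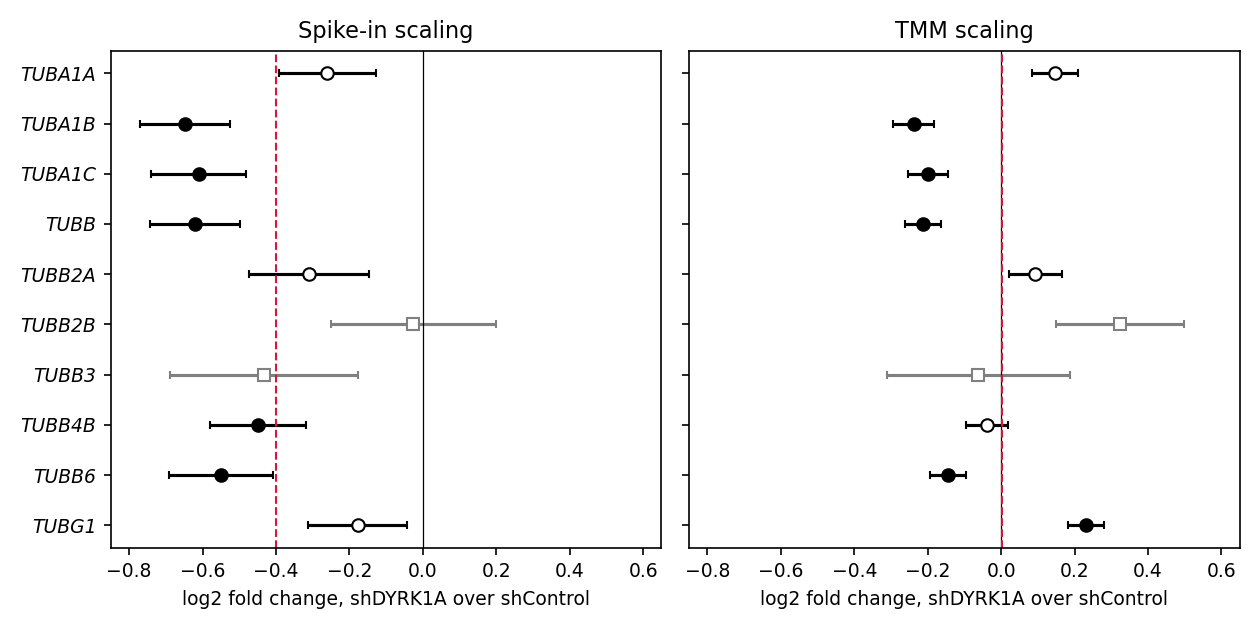
Log2 fold changes (shDYRK1A over shControl, horizontal axis) of the 10 tubulin genes with spike-in scaling (left) and TMM scaling (right), with bars of 1 standard error. Filled points had an adjusted p below 0.05, gray squares come from the filterByExpr fit, and the dashed line is the median of all genes tested, at -0.40 and 0.00. TUBA1B, TUBB, TUBA1C and TUBB6 are filled to the left in both panels, and TUBG1 is filled to the right with TMM.

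On the spike-in scale 5 of the 8 tubulin genes tested were lower at an adjusted p below 0.05 and 0 were higher, where 63.4% of all genes tested were lower and 1.08% higher. The count of lower tubulin genes was thus near the background. At an unadjusted p below 0.05 there were 6 of 8 lower, against 67.4% of all genes, and DESeq2's Wald test also called 6 lower and 0 higher, against 68.1 and 1.3%. The number beyond a log2 change of 0.7 was 0 by both tools, against 14.3% of all genes below -0.7 and 0.278% above 0.7. Without shControl 1C, the control library with the lowest summed alpha and beta count on this scale (310530 against 362528 and 376458), 8 of 8 were lower and 2 passed -0.7, namely TUBA1B at -0.73 and TUBB at -0.70, while 77.9% of all genes were lower, 21.6% passed -0.7 and the median of all genes was -0.48. Normalized counts of 6 tubulin genes did not overlap between groups and were lower in shDYRK1A, a pattern shown by 63.6% of all genes tested. T98G cell numbers were equal by design. The counts of bulk RNA themselves cannot tell fewer cells from less RNA per cell.

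With TMM, 4 of the 8 were lower and 1 higher, against 28.6 and 27.3% of all genes. Ordered among the 9697 genes by TMM fold change, TUBA1B had 19.2% of genes below it, TUBB 21.6%, TUBA1C 22.9% and TUBB6 29.3%. TUBB4B had 43.7% below it, TUBB2A 64.1%, TUBA1A 71.5% and TUBG1 81.8%. The median fold change of the 8 was -0.50 with the spike-in and -0.09 with TMM.

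Shares of counts do not depend on either scale. The 9 alpha and beta genes together took 0.754, 0.787 and 0.774% of human gene counts in shControl and 0.651, 0.711 and 0.696% in shDYRK1A. The groups did not overlap, and shDYRK1A minus shControl was -0.0859 percentage points (means 0.772 ± 0.0167% in shControl and 0.686 ± 0.0312% in shDYRK1A, SD, n = 3, exact permutation test p = 0.1, two-sided, the smallest that 3 against 3 allows). Wilson 95% intervals for single libraries were at most 0.00567 points wide and cover counting error only. Over the same libraries, the mitochondrial genome took 4.97 to 5.23% of counts in shControl and 5.46 to 5.69% in shDYRK1A, and without those counts in the total the tubulin difference was -0.0869 points.

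The balance between the classes overlapped between the groups. Of the counts per kilobase of exon of these 9 genes, alpha made up 46.8, 47.1 and 47.0% in shControl and 46.1, 46.7 and 46.9% in shDYRK1A, a mean difference of -0.416 points (SD 0.193 and 0.424, exact permutation p = 0.2, n = 3 per group). Which class was the larger depended on the length used. Mean alpha shares in shControl and shDYRK1A were 59.1 and 58.6% with principal transcript lengths, and 51.3 and 51.1% with raw counts.

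Within the 3 alpha genes, a total that leaves out TUBA4A, the share of TUBA1A was higher and that of TUBA1B lower in every shDYRK1A library. Per kilobase of exon TUBA1A made up 8.16, 8.87 and 8.93% of the sum of these 3 in shControl and 10.9 to 11.1% in shDYRK1A. TUBA1B went from 78.6, 78.7 and 78.4% to 76.3, 76.1 and 76.6%. Neither overlapped between groups. TUBA1C held 13.2, 12.4 and 12.6% against 12.7, 12.9 and 12.5%, which overlapped (exact permutation p = 0.9).

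Within the 6 beta genes, TUBB made up 77.8, 77.7 and 77.7% of their sum in shControl and 75.7, 75.0 and 76.2% in shDYRK1A. TUBB4B went the other way, from 20.1% in each shControl library to 21.8, 22.7 and 21.5%. The minor isotypes TUBB2A, with 0.656 ± 0.0151 against 0.791 ± 0.0562%, and TUBB2B, with 0.0910 ± 0.0176 against 0.132 ± 0.0249%, also had larger shares in every shDYRK1A library. Shares of TUBB6 (1.40 ± 0.0188 against 1.43 ± 0.0213%) and TUBB3 (0.0326 ± 0.0129 against 0.0358 ± 0.00999%) overlapped. Each of the 6 shares whose groups did not overlap had p = 0.1 in the exact permutation test, the smallest possible, and 0.15 after Benjamini-Hochberg adjustment over the 9 genes. Shares within such a sum add up to a whole, so they are not independent of each other.

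**Figure D3:**
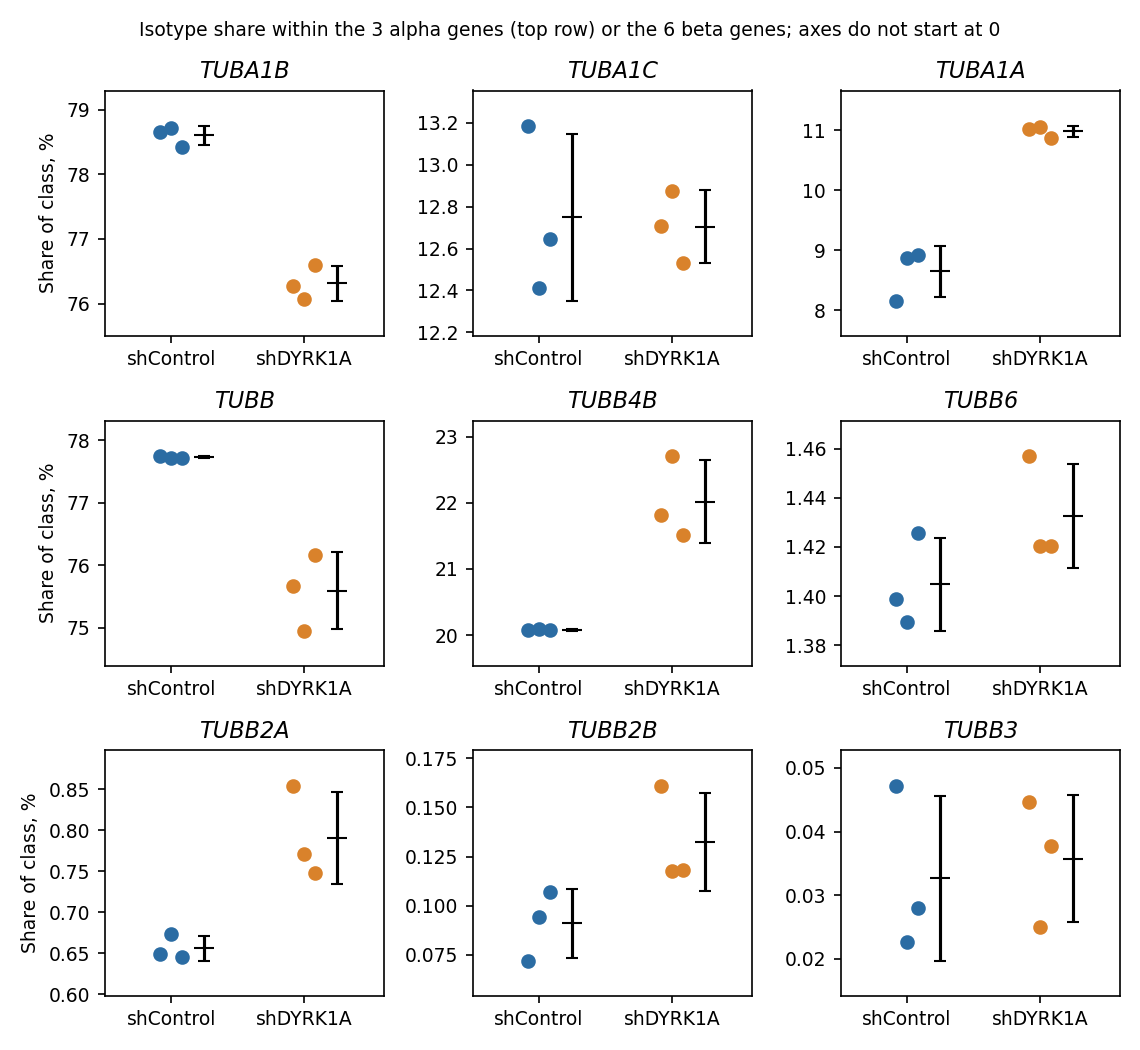
Share of each isotype within the counts per kilobase of exon of the 3 alpha genes (top row) or the 6 beta genes (middle and lower rows), in percent on the vertical axes, which do not start at 0. Points are libraries and bars are mean ± SD, n = 3. TUBA1B and TUBB lie lower and TUBA1A, TUBB4B, TUBB2A and TUBB2B higher in every shDYRK1A library.

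Genes that work with tubulin were read against the same background, 63.4% lower and 1.08% higher with the spike-in and 28.6% lower and 27.3% higher with TMM. Of 14 other human tubulin genes listed, 3 passed the filter on low counts. TUBA4A, an alpha isotype at 192 CPM in shControl, was lower on both scales (-0.64, adjusted p = 1.54e-05, and -0.23, adjusted p = 0.00602, edgeR). TUBE1, the epsilon-tubulin of centrioles, was lower on the spike-in scale (-0.53, adjusted p = 0.00324) and not with TMM (-0.13, adjusted p = 0.268). TUBG2, the second gamma-tubulin gene, was higher relative to all genes (0.47, adjusted p = 0.000251) with a spike-in value of 0.06 (adjusted p = 0.734), and it shares windows of read length with TUBG1. Below the filter, delta-tubulin TUBD1 stood at 9.75 CPM in shControl and 9.53 in shDYRK1A, and TUBB4A at 1.10 and 1.16 CPM.

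The gamma-tubulin ring complex holds gamma-tubulin in the ring from which microtubules grow. All 10 of its listed genes were tested, and relative to all genes 2 were lower and 2 higher, with a median TMM fold change of 0.02. With the spike-in 6 were lower and 0 higher, with a median of -0.38. MZT1, a small subunit, was the lowest (-0.79, adjusted p = 1.25e-06, and -1.20 on the spike-in scale). TUBGCP6, a large subunit, was the highest (0.33, adjusted p = 0.000569), with a spike-in value of -0.07 (adjusted p = 0.672).

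New tubulin chains are folded by the chaperonin TRiC/CCT, to which prefoldin delivers them, and then joined into dimers by tubulin cofactors. Of 14 chaperonin and prefoldin genes tested, 7 were lower and 3 higher with TMM, where 28.6 and 27.3% of all genes were, and 11 lower and 0 higher with the spike-in, where 63.4 and 1.08% were. The extremes with TMM were CCT8 (-0.38, adjusted p = 2.94e-05) and PFDN5 (0.26, adjusted p = 0.0143). Among the 7 cofactor genes, 3 were lower and 2 higher with TMM and 5 were lower on the spike-in scale. TBCEL, a cofactor-like protein known to destabilize tubulin, was at -0.89 (adjusted p = 1.19e-06) with TMM and -1.29 with the spike-in. ARL2, a small GTPase that works with the cofactors, was at 0.41 (adjusted p = 0.00102) with TMM and 0.01 (adjusted p = 0.964) with the spike-in.

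The autoregulation factors TTC5, which recognizes the start of the tubulin chain, and SCAPER, which links it to mRNA decay, lay just under the filter, at 9.45 CPM each in shControl and 9.40 and 8.49 CPM in shDYRK1A. In the filterByExpr fit they were lower with the spike-in (-0.43, adjusted p = 0.0274, and -0.58, adjusted p = 0.00299, edgeR) and did not pass with TMM (-0.06, adjusted p = 0.63, and -0.20, adjusted p = 0.137). In that fit 44.2% of all genes were lower with the spike-in.

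Enzymes that modify tubulin tails or lysines were tested for 11 of 28 listed genes. With TMM 2 were lower and 5 higher, with a median of 0.11, and with the spike-in 4 were lower and 0 higher, with a median of -0.29. TTLL4, a glutamylase, was the lowest with TMM (-0.21, adjusted p = 0.0188), and SVBP, the partner of the enzymes that remove the last tyrosine of alpha-tubulin, was the highest (0.40, adjusted p = 0.000226, and 0.00 with the spike-in). TTL, which puts that tyrosine back and is named after its values were seen, was the other gene that was lower (-0.20, adjusted p = 0.00422).

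Among microtubule-associated proteins, 21 of 32 listed genes were tested, and 7 were lower and 4 higher with TMM, beside 28.6 and 27.3% of all genes. With the spike-in 16 were lower and 0 higher, beside 63.4 and 1.08%. MAP2, a stabilizer best known from dendrites, had the lowest value, at -1.24 with TMM (adjusted p = 3.9e-07) and -1.64 with the spike-in (adjusted p = 5.38e-23), from 36.1 to 15.5 CPM. CLASP1, which promotes growth at plus ends, had the highest (0.31, adjusted p = 0.000383, with TMM, and -0.09, adjusted p = 0.551, with the spike-in). MAP1B, named after its values were seen, also fell on both scales (-0.89 and -1.29), from 253 to 139 CPM.

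Stathmins, which hold free dimers, and severing enzymes were tested for 7 of 12 listed genes, with 3 lower and 1 higher by TMM and 5 lower and 0 higher by the spike-in. FIGNL1 was the lowest (-0.44, adjusted p = 0.0005, with TMM) and STMN3 the highest (0.40, adjusted p = 3.25e-05, with TMM, and 0.00 with the spike-in). STMN1, the abundant stathmin of dividing cells and named after its values were seen, went from 325 to 248 CPM (-0.41 with TMM, adjusted p = 2.74e-05).

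**Figure D4:**
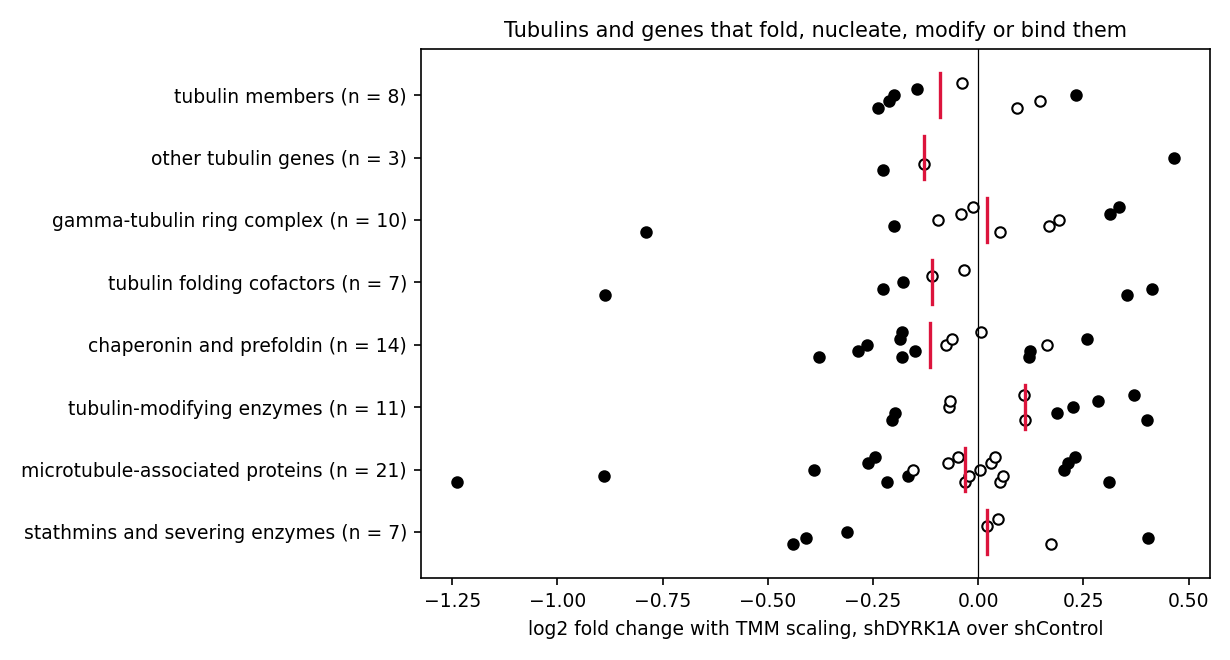
TMM log2 fold changes (horizontal axis, shDYRK1A over shControl) of tubulin genes and of genes that fold, nucleate, modify or bind tubulin, with 1 point per gene tested. Filled points had an adjusted p below 0.05 and red lines are list medians, which run from -0.13 to 0.11 where the median of all genes was 0.00. MAP2 is the leftmost point at -1.24.

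The 300 bases around each gene start (250 before it and 50 after, RefSeq, GRCh38.p14) were searched on both strands for 3 motifs, none of which contains another. The 10 genes have 15 such windows, since some have several annotated starts. The palindrome TCTCGCGAGA, the element that DYRK1A is associated with at promoters, was in 0 of the 15, and 0.424% of all 35116 windows hold it. At so low a share, 0 of 15 says little about these genes. Letters had to match exactly here, which is stricter than the paper's scoring of matches by p-value. CCAAT was in 10 of the 15, of all genes but TUBA1B and TUBB2A, against 34.6% of all windows. Overlapping windows of TUBA1C hold the same CCAAT site, so the windows are not independent of each other. TATAAA was found in 1, that of TUBB2A, against 11.5% of all windows, starting 30 bases before the gene start. That stretch is printed, with the motif in capitals, because no other member has the motif in its windows.
TUBB2A, chr6:3157557-3157586, minus strand: cgggtccccgggTATAAAagaccgagctgg
These matches are letters in a window and say nothing of what binds there.

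Across the 6 libraries, the genes whose TMM level followed the summed level of the 9 alpha and beta genes most closely were ACOT7 (Pearson r = 0.996), SCARB1 (0.994) and PYCR1 (0.992), all on log2 values. They encode a fatty acyl-CoA thioesterase, a lipoprotein receptor and an enzyme of proline synthesis. The tubulin sum was 7614, 7924 and 7783 TMM-scaled CPM in shControl and 6376, 7216 and 6839 in shDYRK1A, and ACOT7 was at 165, 176 and 169 and at 117, 144 and 129. In both, shDYRK1A 1A was the lowest library and shDYRK1A 1B the highest of its group. The points share libraries and fall into the groups of the design, and 117 of 9689 genes had r above 0.95, so the values describe likeness and carry no test.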

How the data were processed

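mRNA was measured by RNA-Seq in 6 T98G libraries, 3 shControl and 3 shDYRK1A, grouped by title. The authors deposited raw gene counts per library (58174 genes) and a table of spike-in normalized signal, which equals the counts divided by 1 size factor per library (0.821 to 1.03 in shControl, 1.06 to 1.21 in shDYRK1A) and in which 4 genes have no row in the count tables. The submitters' processing notes name STAR, DESeq2, hg38 and dm3. The STAR version and the annotation used for counting are not given in the sources used here. A further deposited table of the authors' fold changes and p-values was not used. Columns that matched no sample numbered 0. Coordinates of 95.7% of the genes in the normalized table, and of all 10 tubulin genes, equalled GENCODE v29 (GRCh38).

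Genes with a mean above 10 CPM (9697) were tested with edgeR 4.0.16 (quasi-likelihood, robust, R 4.3.3) on counts scaled by the spike-in size factors and, separately, by TMM, with Benjamini-Hochberg adjustment over all 9697. Only the edgeR spike-in fit to all 6 libraries was tested on simulated data. These were drawn with the size factors that the fit used, so an error in those factors was not covered. Shares per library were compared by two-sided exact permutation tests (scipy 1.17.1). Alternatives were DESeq2 1.42.0, median-of-ratios scaling, a block for the replicate letters and fits without 1 library at a time. Others were a looser filter (filterByExpr), every gene with more than 1 count in all, raw counts in place of counts per kilobase and totals without mitochondrial genes. The length of 1 principal transcript was added after seeing the data. The tubulin genes and the lists were chosen with earlier results of these data known. Named genes are the 10 members, DYRK1A, TTC5, SCAPER, the genes with the lowest and highest TMM fold change of each list, other tubulins above 1 CPM and the 3 genes most like the alpha and beta sum. Cell type markers, and genes said to be named after their values were seen, come on top of this rule. Sequences came from GENCODE v29 transcripts and RefSeq promoters, protein sequences were not printed, and the remaining coding ends are not reported here.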

Additional observations from a re-analysis of the deposited data

How the results depend on the processing

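Counts of tubulin genes called mostly kept to within 1.5 times their value. On the spike-in scale, leaving out 1 library at a time gave 5 to 8 lower genes and 0 to 2 past a change of 0.7, the upper values without shControl 1C, and the number higher went from 0 to 1 (TUBG1) under TMM and median-of-ratios scaling. Relative to all genes, the number higher went from 1 to 2, with TUBA1A added, under the replicate block and under DESeq2's Wald test, and was 1 to 2 with 1 library left out. Human scaling in place of the spike-in turned the sign of TUBA1A (to 0.15 with either), TUBB2A (0.0931 with TMM and 0.0962 with median-of-ratios) and TUBG1 (0.23 with either). TUBB4B relative to all genes ranged from -0.11 to 0.0069 over the fits without 1 library. The share of TUBA1C within its class, -0.0445 points, ranged from -0.213 to 0.175 without 1 library and was 0.00629 with principal transcript lengths, and the share of TUBB3 ranged from -0.00187 to 0.0104. With raw counts in place of counts per kilobase the share differences were -1.61 points for TUBB, 1.44 for TUBB4B, 0.0787 for TUBB2A and 0.0533 for TUBB6. The TUBB6 shares then no longer overlapped, narrowly, with 1.889% the highest in shControl and 1.894% the lowest in shDYRK1A (exact permutation p = 0.1). The cause of these changes was not tested, except that shares of raw counts weight long genes more by construction.

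Libraries with the same letter correlated at 0.15 (1A), 0.07 (1B) and 0.13 (1C) in their deviations from the group means. Those with different letters correlated at -0.095 to -0.015, so each library correlated best with its own letter, though weakly. The labels do not say whether the letters pair the samples, and the main fits held no replicate block. The replicate block left 5 lower genes on the spike-in scale and 4 with TMM, and it gave TUBA1A 0.15 (adjusted p = 0.0127, edgeR) relative to all genes. Depth limits TUBB2B and TUBB3, with 42 to 143 counts per library, and windows of read length in common with other genes limit them further. The spike-in scale rests on size factors that could not be recomputed from fly reads here.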
